A study of Arabidopsis thaliana with 18 samples.

Results

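NAC and WRKY proteins are plant-specific transcription factors, each family named for its DNA-binding domain. WRKY proteins bind W-box elements in promoters and are best known for roles in pathogen responses and in leaf senescence, and several are induced by wounding, jasmonate or salicylate. NAC proteins act in senescence, in organ boundaries, in secondary wall formation and in stress responses. The transcript levels of members of both families were examined in *Arabidopsis thaliana* flowers before and at flower opening, in plants lacking the auxin response factors ARF6 and ARF8 or the MYB transcription factors MYB21 and MYB24. Members were the probe sets that match 1 gene whose symbol in the array annotation is NAC or WRKY followed by a number, leaving out *NAC047*. The annotation used here does not list *NAC047*, so leaving it out removed no gene. This gave 7 genes, 1 NAC gene and 6 WRKY genes, each with 1 probe set, of 13350 genes named in this way among 22746 probe sets tested. The RefSeq gene table holds 146 genes with such symbols, 79 NAC and 67 WRKY genes. The 7 genes are therefore a small share of both families. In the array annotation 8730 of the probe sets tested are not listed, and some family members, such as *ZAP1*, are listed under other names. They were *NAC014* (AT1G33060), *WRKY6* (AT1G62300), *WRKY20* (AT4G26640), *WRKY22* (AT4G01250), *WRKY42* (AT4G04450), *WRKY47* (AT4G01720) and *WRKY53* (AT4G23810).

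The Columbia ecotype was used throughout, and Affymetrix ATH1 arrays compared the *arf6-2 arf8-3* double mutant and the *myb21-5 myb24-5* double mutant with wild type. Flowers were taken at stage 13, when wild-type flowers open, and at stage 12, the closed buds just before opening. Each of the 6 groups had 3 replicate arrays, lettered A, B and C, and 18 arrays in all. Opening is impaired in the mutants, and the sources used here do not say how their stage 13 flowers were matched to open wild-type flowers for the arrays. The study describes flowers of the *arf* mutant as arresting as closed buds, and buds of the *myb* mutant as staying closed. It presumes that array data of the later stage hold many indirect effects of arrested development. Its own analyses focused on the earlier stage, when flowers of both mutants resembled wild type. The part of this arrest in the stage 13 differences, stage changes and interactions below was not tested. The *arf6-2*, *arf8-3* and *myb24-5* alleles are T-DNA insertions, *myb21-5* carries a premature stop codon, and each genotype was represented by 1 combination of alleles. Whole flowers were used, so that fewer cells of a type and less RNA per cell cannot be told apart in any value below.

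Replicate A of *myb21-5 myb24-5* at stage 13, as labelled, stood apart from its group. Over all probe sets its differences from *arf6-2 arf8-3* stage 13 replicate A had an SD of 0.121 on the log2 scale, whereas those from the other 2 arrays of its own group had SDs of 0.538 and 0.551. Pairs of arrays within a group among the remaining 17 gave SDs of 0.236 to 0.481. This array was left out of every fit except the alternative named as using all 18 arrays. The *myb21-5 myb24-5* stage 13 values therefore have n = 2 elsewhere, and the array's own values are given for the 7 members. Medians of the 18 arrays lay between 7.71 and 7.78. Of 12 genes listed as markers of flower organ identity, 1 was measured, the regulator *UFO*. It lay between 6.17 and 6.73 in the 17 arrays and passed no comparison, which does not show the organ make-up of the flowers. The mutated genes themselves were not analysed here.

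All levels are log2 expression values, in which 1 unit is a 2-fold difference, and a level is compared only between arrays for the same gene. A gene passed a comparison at an adjusted p under 0.05 in limma's moderated test, with Benjamini-Hochberg adjustment over all probe sets, and was called where the change was also at least 2-fold. Errors of group means are SDs over arrays, and errors of changes are standard errors (SE) from the fit. Both mutants were set against the same wild-type arrays, so the comparisons of both mutants at a stage are not independent.

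In stage 13 flowers, 4 of the 7 genes passed in the comparison of *arf6-2 arf8-3* with wild type, where 20.0% of all probe sets passed. *WRKY6*, *WRKY47* and *WRKY53* were underexpressed in the mutant, against 9.30% of probe sets, and *NAC014* was overexpressed, against 10.7%. Called at 2-fold or more were *WRKY6* and *WRKY53*, against 6.47% of probe sets. In stage 13 flowers of *myb21-5 myb24-5* (n = 2), *WRKY6* and *WRKY53* were underexpressed and no other member passed, against 10.7% of probe sets in either direction and 5.67% lower, and both were called, against 4.49%. At stage 12, *WRKY6* and *WRKY47* were underexpressed in *arf6-2 arf8-3* buds, against 13.1% of probe sets in either direction and 6.86% lower. *WRKY6* alone passed in *myb21-5 myb24-5* buds, against 3.46% in either direction and 2.18% lower. No member was called at 2-fold or more at stage 12 by limma, where the background was 4.57% for *arf6-2 arf8-3* and 1.43% for *myb21-5 myb24-5*. At an unadjusted p under 0.05 and any fold, limma gave 3 members in *arf6-2 arf8-3* buds, against 23.3% of probe sets, and 2 in *myb21-5 myb24-5* buds, against 14.2%. The unadjusted test of the study's methods gave 2 in each, against 16.5% and 11.1%. The median log2 change of the 7 genes at stage 13 was 0.02 in *arf6-2 arf8-3* and -0.13 in *myb21-5 myb24-5* flowers, and over all probe sets it was -0.0015 and 0.03. The members went both ways, with changes of -1.72 in *WRKY6* to 0.74 in *NAC014* in *arf6-2 arf8-3* flowers.

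**Figure D1:**
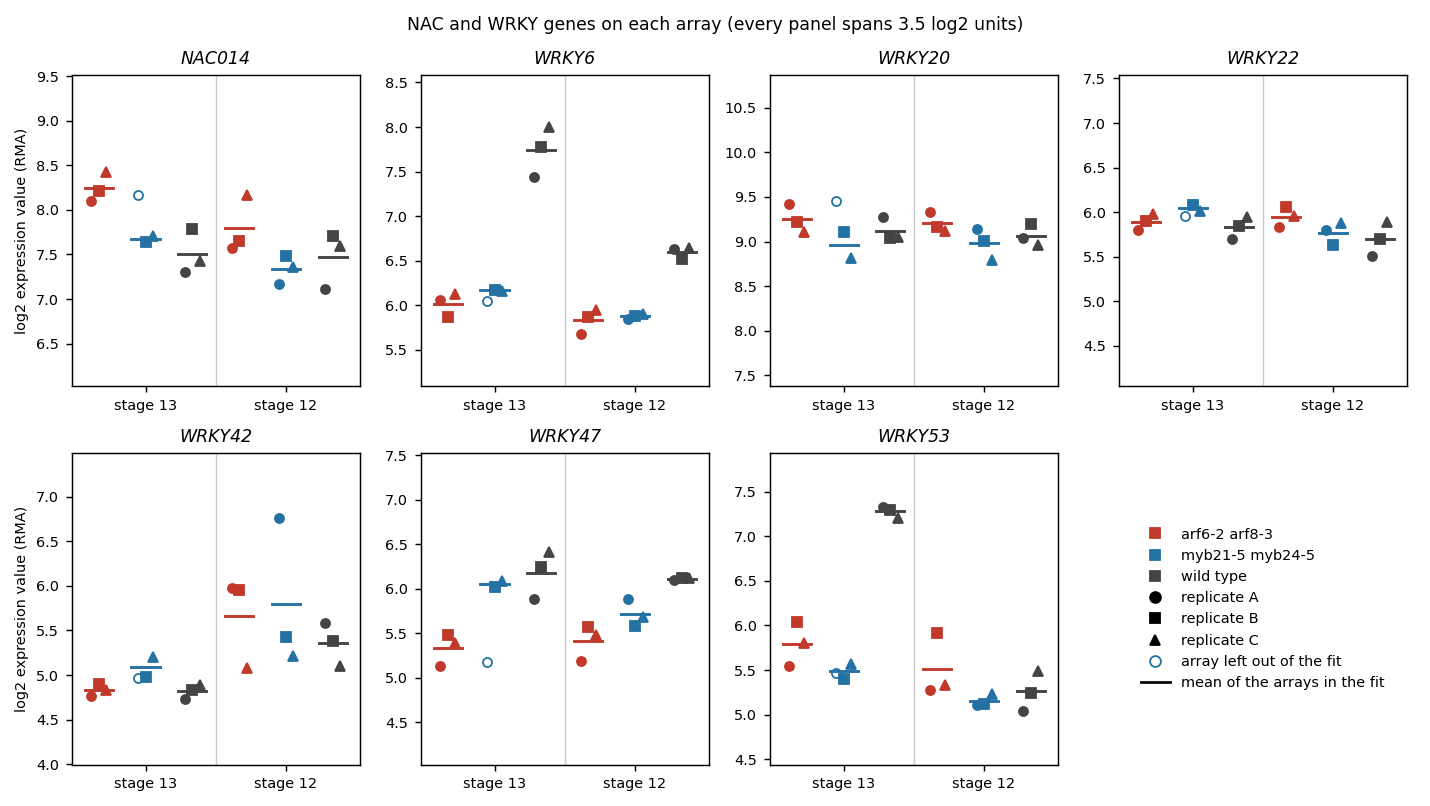
Log2 expression value of each of the 7 genes on each of the 18 arrays, with stage 13 left of stage 12 and, within a stage, *arf6-2 arf8-3* (red), *myb21-5 myb24-5* (blue) and wild type (grey); marker shapes are replicates A to C, bars are means of the arrays fitted and the open circle is the array left out. Wild-type stage 13 arrays stand above every other array for *WRKY53* (7.21 to 7.33) and *WRKY6* (7.44 to 8.00).

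*WRKY53* encodes a regulator of leaf senescence. In stage 13 flowers its log2 values were 5.55, 6.04 and 5.80 in *arf6-2 arf8-3*, 5.40 and 5.57 in *myb21-5 myb24-5*, and 7.33, 7.30 and 7.21 in wild type. The array left out read 5.47. The wild-type arrays stood above all mutant arrays by more than 1 log2 unit. In stage 12 buds the values were 5.28, 5.91 and 5.33 in *arf6-2 arf8-3*, 5.11, 5.12 and 5.23 in *myb21-5 myb24-5*, and 5.04, 5.25 and 5.49 in wild type. At this stage the range of each mutant overlapped that of wild type. Most of these stage 12 values were near 5, among the dimmer values, where RMA values understate fold changes.

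In wild type, *WRKY53* was 4.05-fold higher at stage 13 than at stage 12 (log2 change 2.02, SE 0.16, 95% interval 1.67 to 2.37, adjusted p = 3.39e-06). Among the probe sets tested, 91 or 0.4% had an increase of at least this size. The stage 13 minus stage 12 change was 0.29 (95% interval -0.06 to 0.64, adjusted p = 0.421) in *arf6-2 arf8-3* and 0.33 (95% interval -0.06 to 0.72, adjusted p = 0.344) in *myb21-5 myb24-5*. The stage change was smaller than in wild type in both mutants, with an interaction of -1.73 in *arf6-2 arf8-3* (SE 0.23, adjusted p = 0.00119) and of -1.69 in *myb21-5 myb24-5* (SE 0.25, adjusted p = 0.00236). At stage 13, *WRKY53* was therefore 2.79-fold lower in *arf6-2 arf8-3* than in wild type (log2 change -1.48, adjusted p = 1.14e-05) and 3.47-fold lower in *myb21-5 myb24-5* (log2 change -1.80, adjusted p = 1.06e-05). At stage 12 the difference from wild type was 0.25 in *arf6-2 arf8-3* (adjusted p = 0.434) and -0.11 in *myb21-5 myb24-5* (adjusted p = 0.888). The mutants were not distinguished from each other, with an *arf6-2 arf8-3* minus *myb21-5 myb24-5* difference of 0.31 at stage 13 (95% interval -0.08 to 0.71, adjusted p = 0.303) and 0.36 at stage 12 (95% interval 0.01 to 0.71, adjusted p = 0.244).

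**Figure D2:**
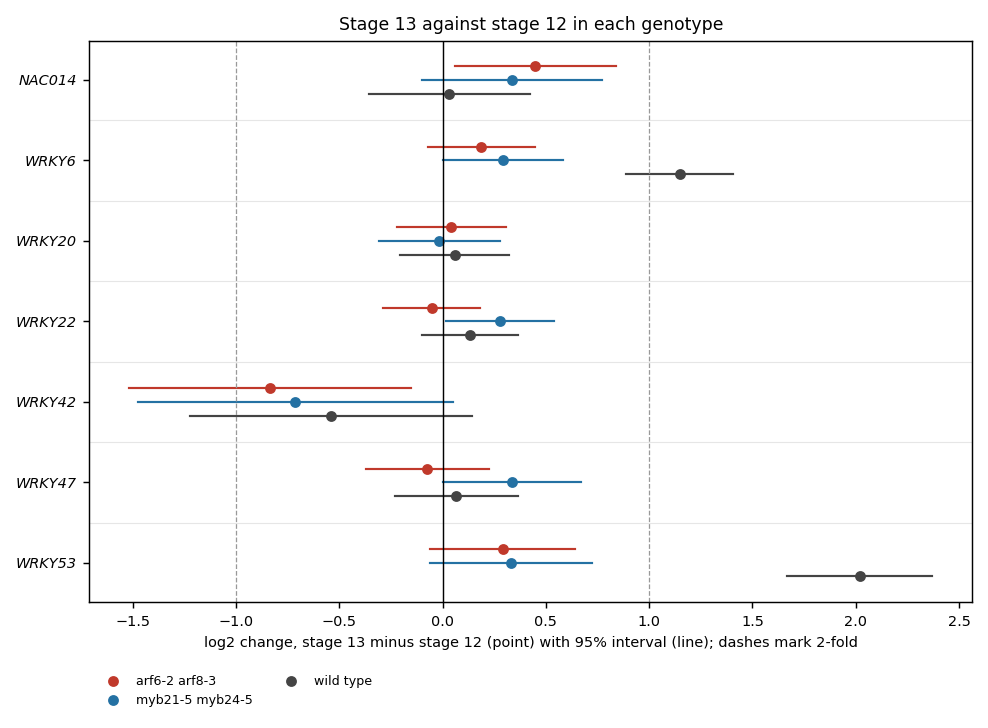
Log2 change from stage 12 to stage 13 (stage 13 minus stage 12) of each gene in *arf6-2 arf8-3* (red), *myb21-5 myb24-5* (blue, n = 2 at stage 13) and wild type (grey), points with 95% intervals; dashed lines mark 2-fold. The wild-type changes of *WRKY53* (2.02) and *WRKY6* (1.15) lie right of both mutants' intervals.

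*WRKY6* encodes a senescence- and pathogen-responsive factor that also represses the phosphate exporter gene *PHO1*. Its stage 13 values were 6.06, 5.87 and 6.13 in *arf6-2 arf8-3*, 6.18 and 6.16 in *myb21-5 myb24-5*, and 7.44, 7.78 and 8.00 in wild type. The array left out read 6.05. At stage 12 the values were 5.68, 5.86 and 5.95 in *arf6-2 arf8-3*, 5.84, 5.88 and 5.90 in *myb21-5 myb24-5*, and 6.63, 6.52 and 6.64 in wild type. Mutant and wild-type arrays did not overlap at either stage, and *WRKY6* passed in both mutants already in closed buds. *WRKY53* passed in neither mutant there, at wild-type values near 5, where a decrease may be understated.

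At stage 12, *WRKY6* was 1.70-fold lower in *arf6-2 arf8-3* (log2 change -0.76, adjusted p = 0.000638) and 1.64-fold lower in *myb21-5 myb24-5* (log2 change -0.72, adjusted p = 0.00307) than in wild type. At stage 13 it was 3.30-fold lower in *arf6-2 arf8-3* (log2 change -1.72, adjusted p = 1.33e-07) and 2.98-fold lower in *myb21-5 myb24-5* (log2 change -1.57, adjusted p = 2.15e-06). In wild type *WRKY6* was 2.21-fold higher at stage 13 than at stage 12 (log2 change 1.15, SE 0.12, adjusted p = 3.6e-05), and 377 probe sets or 1.66% had at least this increase. The stage change was 0.19 in *arf6-2 arf8-3* (adjusted p = 0.507) and 0.29 in *myb21-5 myb24-5* (adjusted p = 0.26). It differed from that of wild type by -0.96 in *arf6-2 arf8-3* (SE 0.17, adjusted p = 0.0101) and by -0.86 in *myb21-5 myb24-5* (SE 0.18, adjusted p = 0.0235). The second of these tests was lost when any one of 5 arrays was left out: wild type replicate B at either stage, *myb21-5 myb24-5* replicate B at either stage, or *myb21-5 myb24-5* stage 13 replicate C, with adjusted p up to 0.114. Where a stage 13 array of *myb21-5 myb24-5* was left out, that group had 1 array, assumed to vary like the other groups. The *arf6-2 arf8-3* minus *myb21-5 myb24-5* difference was -0.15 at stage 13 (95% interval -0.44 to 0.14, adjusted p = 0.535) and -0.05 at stage 12 (95% interval -0.31 to 0.22).

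Over all members, *WRKY6* and *WRKY53* were the genes that passed between stages 13 and 12 in wild type, both higher at stage 13, where 9.71% of probe sets passed in either direction and 5.17% were higher. Both were called at 2-fold or more, against 3.71%. They were also the members that passed the interaction of genotype with stage, against a background of 1.94% for *arf6-2 arf8-3* (1.29% with a negative term) and 2.45% for *myb21-5 myb24-5* (1.05% negative). Only the *WRKY53* terms were also of 2-fold or more, against 1.23% in *arf6-2 arf8-3* and 1.76% in *myb21-5 myb24-5*. No member passed between the stages within either mutant by limma, where the background was 2.53% in *arf6-2 arf8-3* (0.831% at 2-fold or more) and 3.62% in *myb21-5 myb24-5* (2.09%). At an unadjusted p under 0.05, limma gave *NAC014* and *WRKY42* in *arf6-2 arf8-3*, against 16.9% of probe sets, and *WRKY22* and *WRKY47* in *myb21-5 myb24-5*, against 19.3%. The unadjusted test of the study's methods gave 1 member in *arf6-2 arf8-3*, against 12.1% of probe sets, and 2 in *myb21-5 myb24-5*, against 13.9%, at an unadjusted p under 0.05 and any fold.

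**Figure D3:**
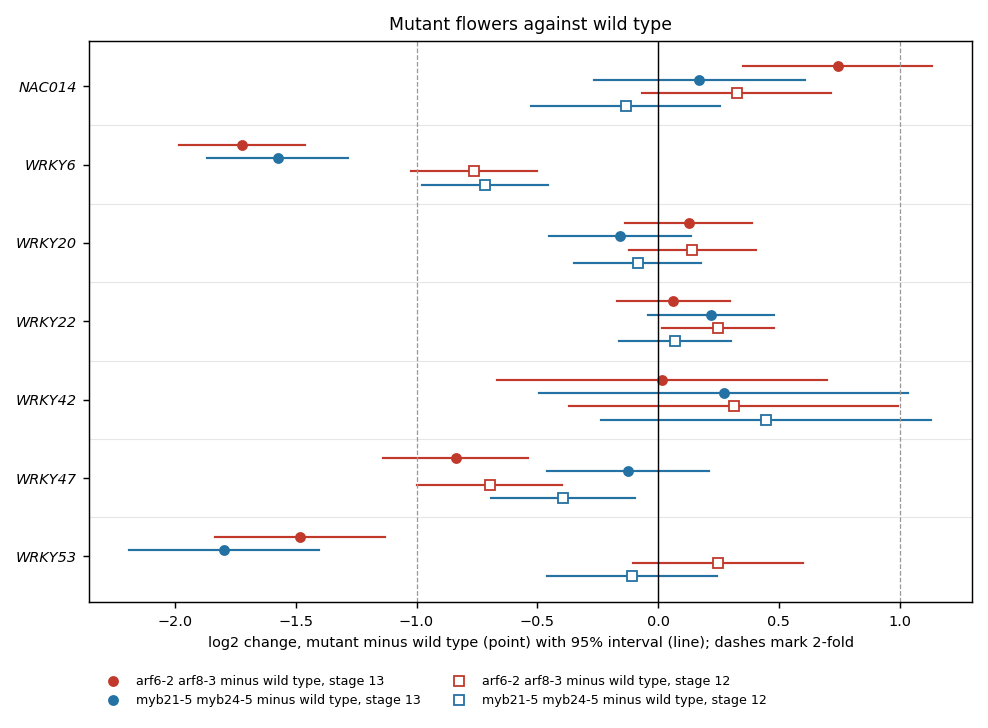
Log2 change of each gene in *arf6-2 arf8-3* (red) and *myb21-5 myb24-5* (blue) minus wild type, at stage 13 (filled circles) and stage 12 (open squares), with 95% intervals; dashed lines mark 2-fold. *WRKY6* and *WRKY53* lie beyond 2-fold lower at stage 13 in both mutants, and *WRKY47* is lower in *arf6-2 arf8-3* at both stages (-0.84 at stage 13 and -0.70 at stage 12).

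*WRKY47* belongs to the same WRKY subgroup (IIb) as *WRKY6* and *WRKY42*. At stage 13 its values were 5.14, 5.48 and 5.40 in *arf6-2 arf8-3*, 6.02 and 6.09 in *myb21-5 myb24-5*, and 5.88, 6.24 and 6.41 in wild type. At stage 12 they were 5.19, 5.57 and 5.48 in *arf6-2 arf8-3*, 5.88, 5.59 and 5.69 in *myb21-5 myb24-5*, and 6.10, 6.12 and 6.12 in wild type. The *arf6-2 arf8-3* arrays were below every wild-type array of the same stage, while at stage 13 the *myb21-5 myb24-5* arrays fell inside the wild-type range. The *arf6-2 arf8-3* values, 5.14 to 5.57, are among the dimmer ones, where a decrease may be understated.

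*WRKY47* was 1.79-fold lower in *arf6-2 arf8-3* than in wild type at stage 13 (log2 change -0.84, SE 0.14, adjusted p = 0.000489) and 1.62-fold lower at stage 12 (log2 change -0.70, SE 0.14, adjusted p = 0.00355). The *myb21-5 myb24-5* difference from wild type was -0.13 at stage 13 (adjusted p = 0.709) and -0.39 at stage 12 (adjusted p = 0.168). Between the mutants at stage 13, *WRKY47* was 1.64-fold lower in *arf6-2 arf8-3* than in *myb21-5 myb24-5* (log2 change -0.71, SE 0.16, adjusted p = 0.00707). It was the member that passed this comparison, against 13.0% of probe sets in either direction, 6.24% lower and 4.44% at 2-fold or more, a size it did not reach. The array left out bears on this result, since it read 5.18, within the *arf6-2 arf8-3* values. With all 18 arrays the difference was -0.42 (adjusted p = 0.371), and without *myb21-5 myb24-5* stage 13 replicate C, which leaves 1 array in that group, it was -0.68 (adjusted p = 0.0727). At stage 12 no member passed between the mutants by limma, against 8.13% of probe sets, 2.59% at 2-fold or more. There 3 members had an unadjusted p under 0.05, *NAC014*, *WRKY47* and *WRKY53*, against 19.8% of probe sets, and the unadjusted test of the study's methods gave 0 at any fold, against 13.5%. The *WRKY47* difference at stage 12 was -0.30 (adjusted p = 0.243).

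*WRKY42*, the other IIb gene, is known for a role in phosphate homeostasis. Its stage 13 values were 4.76, 4.91 and 4.83 in *arf6-2 arf8-3*, 4.98 and 5.20 in *myb21-5 myb24-5*, and 4.73, 4.83 and 4.89 in wild type. The array left out read 4.97. At stage 12 they were 5.98, 5.95 and 5.07 in *arf6-2 arf8-3*, 6.76, 5.43 and 5.21 in *myb21-5 myb24-5*, and 5.58, 5.38 and 5.11 in wild type. Stage 13 arrays lay below all stage 12 arrays of the same genotype, narrowly in *myb21-5 myb24-5*, and the stage 12 buds were spread more widely. The SD over arrays was 0.07 at stage 13 and 0.51 at stage 12 in *arf6-2 arf8-3*, 0.16 and 0.84 in *myb21-5 myb24-5*, and 0.08 and 0.24 in wild type.

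No comparison of *WRKY42* passed. The stage 13 minus stage 12 change was -0.83 in *arf6-2 arf8-3* (SE 0.32, adjusted p = 0.182), -0.71 in *myb21-5 myb24-5* (SE 0.36, adjusted p = 0.295) and -0.54 in wild type (SE 0.32, adjusted p = 0.407). In *arf6-2 arf8-3* the change was called when *arf6-2 arf8-3* stage 12 replicate C, the low array of its group, was left out, and when arrays were weighted by their quality in the fit. Tapetum and anther wall markers, which fall as anthers mature, varied in the same buds. The mean of the 2 measured, *AMS* and *ATA27*, ranged over 4.81 to 9.71 in *arf6-2 arf8-3*, 6.35 to 8.93 in *myb21-5 myb24-5* and 5.53 to 6.67 in wild-type stage 12 arrays. In stage 13 arrays it ranged over 4.32 to 5.76 in *arf6-2 arf8-3*, 4.43 to 4.57 in *myb21-5 myb24-5* and 4.14 to 4.33 in wild type. Neither marker passed any comparison, and their part in the *WRKY42* values was not tested.

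*NAC014*, the NAC gene measured, encodes a protein of the membrane-associated NTM1-like group. At stage 13 its values were 8.10, 8.21 and 8.43 in *arf6-2 arf8-3*, 7.64 and 7.70 in *myb21-5 myb24-5*, and 7.30, 7.78 and 7.42 in wild type. The array left out read 8.16, inside the *arf6-2 arf8-3* range. At stage 12 the values were 7.57, 7.66 and 8.16 in *arf6-2 arf8-3*, 7.17, 7.48 and 7.36 in *myb21-5 myb24-5*, and 7.11, 7.71 and 7.59 in wild type. All 3 *arf6-2 arf8-3* stage 13 arrays were above all wild-type stage 13 arrays, whereas the stage 12 ranges overlapped.

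*NAC014* was 1.67-fold higher in *arf6-2 arf8-3* than in wild-type stage 13 flowers (log2 change 0.74, SE 0.18, adjusted p = 0.00882). At stage 12 the difference was 0.33 (adjusted p = 0.325). In *myb21-5 myb24-5* the difference from wild type was 0.17 at stage 13 (adjusted p = 0.697) and -0.13 at stage 12 (adjusted p = 0.871). Between the mutants, *NAC014* was 0.57 log2 units higher in *arf6-2 arf8-3* at stage 13 (95% interval 0.14 to 1.01, adjusted p = 0.0831) and 0.46 at stage 12 (95% interval 0.07 to 0.85, adjusted p = 0.165). With the replicate letter as a block these 2 differences passed (adjusted p = 0.00567 and 0.0305), as did the stage change of 0.45 in *arf6-2 arf8-3* (adjusted p = 0.0455, against 0.217 without the block).

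*WRKY20*, a group I gene whose protein carries a pair of WRKY domains, and *WRKY22*, which acts downstream of a flagellin-induced kinase cascade, passed no comparison. *WRKY20* ranged over 8.79 to 9.42 in the 17 arrays, and its changes against wild type lay between -0.16 and 0.14. The array left out read 9.46, above that range. *WRKY22* ranged over 5.51 to 6.08 in the 17 arrays, and the array left out read 5.96. Its largest changes were 0.28 between stages 13 and 12 in *myb21-5 myb24-5* (95% interval 0.02 to 0.54, unadjusted p = 0.0376, adjusted p = 0.226) and 0.25 in *arf6-2 arf8-3* minus wild-type buds (95% interval 0.01 to 0.48, unadjusted p = 0.0387, adjusted p = 0.18). For *WRKY20* and *WRKY22*, the 95% intervals of all changes against wild type lay within 0.5 log2 units of 0. The *WRKY22* values are among the dimmer ones, where a change may be understated. *ZAP1*, which RefSeq also names *WRKY1* and which the symbol rule leaves out, was 0.34 log2 units higher in *arf6-2 arf8-3* than in wild-type stage 12 buds (SE 0.10, adjusted p = 0.0304) and passed no other comparison.

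Genes of senescence and defence that are linked to NAC and WRKY factors were counted in the same fit, from lists of 27 and 32 genes. The array annotation covered 4 senescence and 3 defence genes, *SAG101* being in both, and none of 37 NAC-domain genes listed under other names. *SAG29*, which encodes a senescence-associated sugar transporter also named SWEET15, averaged 8.92 ± 0.21 in *arf6-2 arf8-3*, 8.97 ± 0.11 in *myb21-5 myb24-5* (n = 2) and 10.2 ± 0.66 in wild-type stage 13 flowers. At stage 12 it averaged 8.59 ± 0.30 in *arf6-2 arf8-3*, 8.22 ± 0.11 in *myb21-5 myb24-5* and 7.79 ± 0.38 in wild type (SD, n = 3 each). It was 5.15-fold higher at stage 13 than at stage 12 in wild type (adjusted p = 6.33e-05), and at stage 13 it was 2.34-fold lower in *arf6-2 arf8-3* (adjusted p = 0.00382) and 2.27-fold lower in *myb21-5 myb24-5* (adjusted p = 0.0185) than in wild type. The stage change of *SAG29* was smaller than in wild type in both mutants (interaction -2.04, adjusted p = 0.0128 in *arf6-2 arf8-3* and -1.62, adjusted p = 0.0491 in *myb21-5 myb24-5*). The last value was lost without any one of 8 of the 11 arrays compared, with adjusted p up to 0.168, and the *myb21-5 myb24-5* difference at stage 13 was lost without either of that group's arrays (up to 0.132). Leaving out 1 of these leaves a single array, which the fit assumes to vary like the other groups.

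The other senescence genes had other patterns. *NOL*, a chlorophyll b reductase subunit, was higher in *arf6-2 arf8-3* than in wild type by 0.40 at stage 13 (adjusted p = 0.0202) and 0.43 at stage 12 (adjusted p = 0.0217). *APG8H*, an autophagy protein, was higher by 0.41 at stage 13 (adjusted p = 0.000846) and 0.28 at stage 12 (adjusted p = 0.0187), and it was 0.29 higher at stage 13 than at stage 12 in *arf6-2 arf8-3* (adjusted p = 0.0496, lost without any one of 5 of 6 arrays). Both stage 12 results, and that of *NOL* at stage 13, were lost without any one of 3 of the 6 arrays compared. Among the defence genes, *BIK1*, an immune receptor-associated kinase, averaged 7.71 ± 0.31 in *arf6-2 arf8-3*, 7.29 ± 0.23 in *myb21-5 myb24-5* (n = 2) and 8.18 ± 0.15 in wild-type stage 13 flowers. *BIK1* was lower than in wild type in *arf6-2 arf8-3* at stage 13 (log2 change -0.47, adjusted p = 0.0336, lost without any one of 4 of 6 arrays) and in *myb21-5 myb24-5* at stage 13 (log2 change -0.89, adjusted p = 0.00225) and stage 12 (log2 change -0.79, adjusted p = 0.00607). The *myb21-5 myb24-5* result at stage 13 had an adjusted p of 0.0539 without replicate B, again with a single array left in that group. In wild type, *BIK1* was 0.56 higher at stage 13 than at stage 12 (adjusted p = 0.0245, lost without any one of 3 of 6 arrays) and *SAG101*, a lipase-like immune and senescence protein, was 0.49 higher (adjusted p = 0.0421, lost without any one of 4 of 6 arrays). With all 18 arrays in the fit, 4 of these results no longer passed: *BIK1* in *arf6-2 arf8-3* at stage 13 (adjusted p = 0.0776), *BIK1* between the stages in wild type (0.0656), *SAG101* (0.0701) and *APG8H* between the stages in *arf6-2 arf8-3* (0.0856). In that fit 2 others passed, *APG8H* in *myb21-5 myb24-5* against wild type at stage 13 (adjusted p = 0.0164, against 0.0517 with 17 arrays) and *BIK1* between the stages in *myb21-5 myb24-5* (0.0455, against 0.136). *PDF1.2*, a jasmonate-responsive defensin gene, passed no comparison. *GUT2*, the secondary wall gene measured of 18, and *STZ*, the wounding and handling gene measured of 30, also passed none, so that the handling of the flowers is represented by 1 gene.

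**Figure D4:**
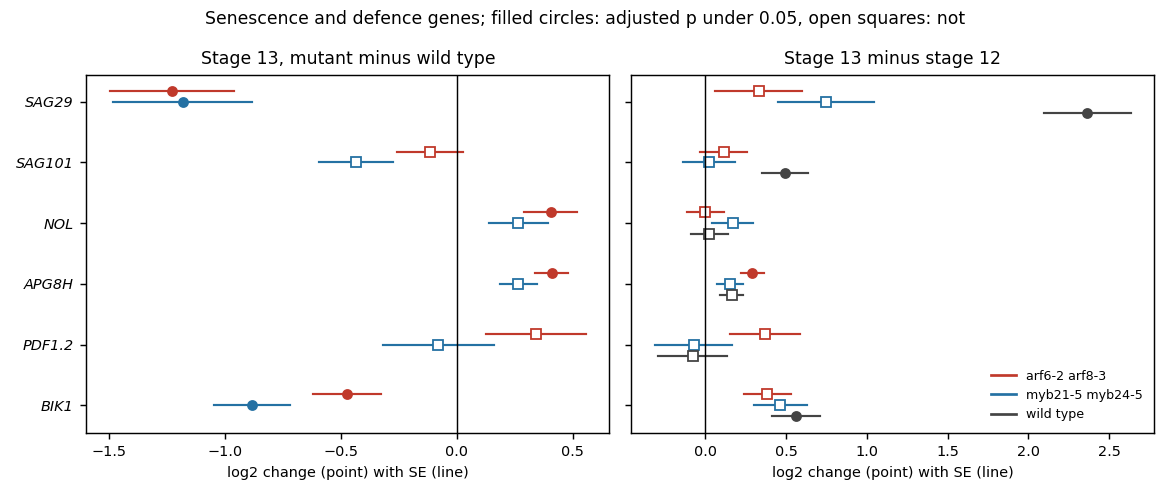
Log2 changes with SE of the 6 senescence and defence genes measured, left for *arf6-2 arf8-3* (red) and *myb21-5 myb24-5* (blue) minus wild type at stage 13, right for stage 13 minus stage 12 in each genotype (wild type grey). Filled circles have an adjusted p under 0.05; *SAG29* is the gene called at 2-fold or more, lower in both mutants at stage 13.

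Of the cell type markers, *SWEET9* followed the groups in which *WRKY6* differed. *SWEET9*, the nectary sugar transporter and the nectary marker measured of 5, was at 5.92 ± 0.07 in *arf6-2 arf8-3*, 6.34 ± 0.15 in *myb21-5 myb24-5* (n = 2) and 12.8 ± 0.26 in wild-type stage 13 flowers. In stage 12 buds it was at 6.11 ± 0.32 in *arf6-2 arf8-3*, 6.09 ± 0.19 in *myb21-5 myb24-5* and 10.8 ± 0.60 in wild type. Like *WRKY6*, *SWEET9* was lower in both mutants at both stages and higher at stage 13 than at stage 12 in wild type (log2 change 1.95, adjusted p = 0.000128). The study describes nectaries of the *myb* mutant as normal in appearance, and those of the *arf* mutant as very small. *SWEET9* alone therefore cannot show how much nectary tissue the *myb21-5 myb24-5* flowers had. Of 21 pollen markers 8 were measured, with array means of 7.04 to 7.54 in *arf6-2 arf8-3*, 7.81 to 8.06 in *myb21-5 myb24-5* and 7.05 to 7.54 in wild type at stage 13. At stage 12 the array means were 7.37 to 7.80 in *arf6-2 arf8-3*, 7.47 to 8.09 in *myb21-5 myb24-5* and 7.90 to 8.27 in wild type. Between stages 13 and 12 in wild type, 4 of the 8 pollen markers passed, against 9.71% of all probe sets in either direction. All 4 were lower at stage 13, opposite to *WRKY6* and *WRKY53*. The others did not pass, *ACT12* (log2 change -1.08) and *SHT* (-0.32) being lower and *TUA1* (0.14) and *ANX2* (0.41) higher. *AGL66* held without any single array. *AGL104* was lost without any one of 2 of 6 arrays, *AGL30* of 4 and *ANX1* of 5. In *myb21-5 myb24-5* (n = 2 at stage 13), *TUA1* (log2 change 1.08) and *ANX2* (2.20) passed as higher at stage 13, against 3.62% of probe sets in either direction. *ANX2* was lost without stage 12 replicate A or B. Between the mutants at stage 13, *ACT12* (-1.52) and *TUA1* (-0.64) were lower in *arf6-2 arf8-3*, against 6.24% lower. Both were lost without *arf6-2 arf8-3* replicate C or with all 18 arrays. Against wild type, *ACT12* was lower in *arf6-2 arf8-3* at stage 13, against 9.30% of probe sets lower (adjusted p = 0.0417, and 0.0817 with all 18 arrays). This was lost without any one of 5 of 6 arrays. *AGL66* and *ANX1* were higher in *myb21-5 myb24-5* (n = 2) at stage 13, against 10.7% in either direction, and *ANX1* was lost without wild-type replicate B or C. Without 1 of the *myb21-5 myb24-5* arrays a single array is left, and neither result is shown to hold there. Leaving out any 1 array gave changes of 1.31 to 1.83 for *AGL66* and 0.87 to 1.14 for *ANX1*. At stage 12, 3 were lower in *arf6-2 arf8-3*, against 6.86% lower. Of these, *ACT12* was lost without any one of 3 of 6 arrays, *AGL66* without 1 array, and *TUA1* held. *EXPA7*, the root and leaf marker measured of 8, lay between 6.04 and 6.55 and passed no comparison. The part of nectary or pollen tissue in the *WRKY6* and *WRKY53* results was not tested.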

How the data were processed

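The deposited values are log2 expression values, 1 per probe set and array. The authors scanned ATH1 arrays with MAS5 software and normalized them by RMA without a baseline; the submitters' processing notes name MAS5 and RMA. RNA was isolated by either of 2 methods, and the sources used here do not say which array had which. Raw intensities were not used, so background correction could not be varied, and the values hold no detection calls. Arrays have no read depth, and the number of arrays limits the precision.

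Groups were taken from the labels. Control probe sets (64) were left out. Of 22746 tested, 13513 name 1 gene, 503 several and 8730 none in the annotation. All 7 members matched RefSeq by gene identifier and have the same symbols there. With limma 3.58.1 (statmod 1.5.0, R 4.3.3), 6 group means were fitted to 17 arrays, with 11 contrasts, two-sided p-values and Benjamini-Hochberg adjustment over all probe sets. The threshold was an adjusted p of 0.05, with the study's 2-fold cutoff for calls. The study's own test left multiple testing uncorrected (a t-test). The named genes are every member called, the extremes of each family and, where a comparison had none, those with the lowest p; this took in all 7. Members and gene lists were chosen with earlier results of these data known. The code was tested on simulated data.

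The sources do not say whether replicate letters mark shared plants or days. Of 6 comparisons with 3 pairs of arrays, every same-letter pair deviated together (correlation over 0.1) in 5, and 3 comparisons have 2 pairs. Over all pairs the correlations ran from -0.02 to 0.74, and those of letter A from 0.55 to 0.74. The main fit has no term for the letter. A replicate block (the letter as a term) was therefore one alternative fit. The others were all 18 arrays, trend and robust variances, array weights, leaving out dim probe sets (mean under 5) and quantile normalization. Further ones were no fold cutoff, the mean of a gene's probe sets, the methods' t-test at its unadjusted p and leaving out each array. The study's methods describe the 3 replicates of a group as biological, and p-values measure the spread between them. That spread also holds any technical variation.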

Additional observations from a re-analysis of the deposited data

Results flagged for a closer look

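Interaction terms, which test whether a mutant's difference from wild type was itself different between stages 13 and 12, picked out 2 of the 7 genes. Over all probe sets, 1.94% passed in *arf6-2 arf8-3* and 2.45% in *myb21-5 myb24-5*. For *WRKY53* the term was -1.73 in *arf6-2 arf8-3* and -1.69 in *myb21-5 myb24-5* (limma, adjusted p = 0.00119 and 0.00236). For *WRKY6* it was -0.96 in *arf6-2 arf8-3* and -0.86 in *myb21-5 myb24-5* (adjusted p = 0.0101 and 0.0235). The last term was lost when certain single arrays, named above, were left out, whereas the *WRKY53* terms held. The part of the arrested development of the mutant flowers in these terms was not tested.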

How the results depend on the processing

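Across 16 single-gene results, 232 of 239 alternative values kept their direction and their side of the threshold, 7 fell short of it and 0 were reversed. Those 7 were the *WRKY6* interaction of *myb21-5 myb24-5* with stage (5 arrays, each left out) and the *WRKY47* difference between the mutants at stage 13 (all 18 arrays, or without replicate C of *myb21-5 myb24-5*), both described above. The study's t-test was scored there on its unadjusted p. With Benjamini-Hochberg adjustment, at any fold, it passed 2 members in *arf6-2 arf8-3* and 1 in *myb21-5 myb24-5* against wild type at stage 13. It then passed 1 between the stages in wild type and 0 in the other comparisons it covered. The alternatives also include the mean of a gene's probe sets, which could change nothing, as each member has 1. With no fold cutoff the number of genes called was 2 for *arf6-2 arf8-3* and 1 for *myb21-5 myb24-5* against wild type at stage 12, 4 for *arf6-2 arf8-3* at stage 13, 1 between the mutants at stage 13, and 2 for each interaction, since fewer criteria then apply. With array weights 1 gene, *WRKY42*, was called between stages 13 and 12 in *arf6-2 arf8-3*; the cause was not tested. Leaving out 1 array at a time gave 0 to 1 genes for that comparison and 1 to 2 for each interaction, as the *WRKY6* term was then above 2-fold. With the replicate block, the number called at 2-fold or more was the same in all 11 comparisons, 2 for both mutants against wild type at stage 13, and at any fold *NAC014* alone gained results. Depth does not apply to arrays. *WRKY42* at stage 13, and *WRKY53* in wild-type and *myb21-5 myb24-5* buds at stage 12, had values near 5. These are among the dimmer values, where RMA values understate fold changes.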
